A study of Mus musculus with 6 samples.

Results

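The genes described here are 35 interferon response genes, chosen by name, and all 35 had a row among the 25664 genes of the deposited count table. They were measured by RNA sequencing of mouse alveolar macrophages, which live in the airspaces of the lung and were sorted from lavage fluid. The Pex5-deficient group holds 3 libraries from Vav1cre/+ Pex5fl/fl animals and the control group 3 libraries from Pex5fl/fl animals, so both groups carry the floxed Pex5 alleles and only the first carries the recombinase. Vav1-Cre acts in blood-forming cells and their descendants, PEX5 is the receptor that carries most enzymes into peroxisomes, and the sources used here give no age, sex or strain.

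Interferons are secreted proteins that put cells on guard against viruses and intracellular microbes. Type I interferons bind the receptor made of IFNAR1 and IFNAR2 and act on genes that carry the interferon-stimulated response element (ISRE), which a complex with STAT2 and IRF9 recognises, while interferon gamma binds a receptor that includes IFNGR1 and acts on genes that carry the gamma-activated site (GAS). Their target genes encode antiviral effectors, sensors of foreign nucleic acid, GTPases that attack vacuoles of microbes, and the inducible subunits of the proteasome, and resting macrophages of the lung keep many of them at a low level.

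The total count per library ran from 13325609 to 19413838. Levels are CPM, counts relative to library size, with sizes scaled by the trimmed mean of M values (TMM), and each group of 3 is given in the order of replicates 1, 2 and 3. Pex5-deficient replicate 2 stood apart in its scaling factor, 1.34 against 0.899 to 1.03 in the other 5 libraries. Pex5 itself measured 31.4, 36.3 and 29.6 CPM in Pex5-deficient and 33.0, 32.1 and 29.7 CPM in control libraries. The counts are per gene, and the exons that recombination removes were not examined apart, so this level checks no label. All 12 alveolar macrophage markers examined passed the filter on low counts, and 3 were called by edgeR's test. Fabp4 was higher in Pex5-deficient libraries (171 to 251 against 43.9 to 115 CPM, edgeR adjusted p = 0.0482). Siglecf (177 to 254 against 618 to 669 CPM, edgeR adjusted p = 0.00334) and Krt79 (273 to 374 against 579 to 1153 CPM, edgeR adjusted p = 0.0233) were lower. Of 13 neutrophil markers 8, S100a9, Ly6g and Mpo among them, had no count in any library, yet the summed level of the list was 125 to 188 CPM in Pex5-deficient against 84.5 to 98.6 CPM in control libraries, with Mmp8 the most abundant. The summed level of 10 monocyte and interstitial macrophage markers was 122 to 203 CPM against 360.2 to 456 CPM, with Fn1 the most abundant. The part of these markers in the results on interferon genes was not tested. In bulk RNA, fewer cells of a type and less RNA per cell cannot be told apart.

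None of the interferon response genes passed the test for a difference between the genotypes, given the spread of the libraries. A total of 34 of the 35 genes had enough counts to be tested, and 0 were higher and 0 lower in Pex5-deficient macrophages by edgeR's quasi-likelihood test at an adjusted p (Benjamini-Hochberg over all genes tested) under 0.05. Over all 11011 genes tested, 1.74% were called higher, 1.51% lower and 3.25% in either direction. At an unadjusted p under 0.05 there were 0 higher and 4 lower members, Gbp7, Trim30a, Gbp2 and Ifngr1, against a background of 9.7% higher, 9.17% lower and 18.9% in either direction over all genes. The groups did not overlap for 5 members, Dhx58, Trim30a, Gbp2, Gbp7 and Psmb8, all of them lower in Pex5-deficient libraries, against a background of 13.1% of all genes lower, 13% higher and 26.1% in either direction. DESeq2 likewise called 0 members, against 3.03% higher, 2.92% lower and 5.95% in either direction of the 12420 genes to which it gave an adjusted p.

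The median log2 fold change of the 34 tested members was -0.11, against -0.000767 over all genes tested. A negative value was found for 23 of the 34 members, against 50.1% of all genes. With library size as the only scaling the median of all genes moved to 0.17 and that of the members to 0.05, so that 13 members were negative. Relative to all genes the members' median was -0.11 with the first scaling and -0.12 with the second. The values ran from -0.58 for Ifit1 to 0.58 for Rsad2. For 16 members the 95% interval of the difference lay wholly within a 1.5-fold change in either direction, a share of 47.1%, against 47.7% of all genes tested. For 25 it lay within a 2-fold change, a share of 73.5%, against 80.8% of all genes tested. The 9 members whose interval reached 2-fold were Irf7, Ifit1, Ifit2, Ifit3, Oasl2, Rsad2, Rtp4, Cmpk2 and Usp18, of which 8 averaged under 5 CPM. The interval reached only a 2-fold fall for Irf7, Ifit1, Ifit2 and Oasl2, and only a 2-fold rise for Rtp4. It reached both for Ifit3, Rsad2, Cmpk2 and Usp18. In the directions reached, a change of that size lay within what these libraries could not resolve.

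**Figure D1:**
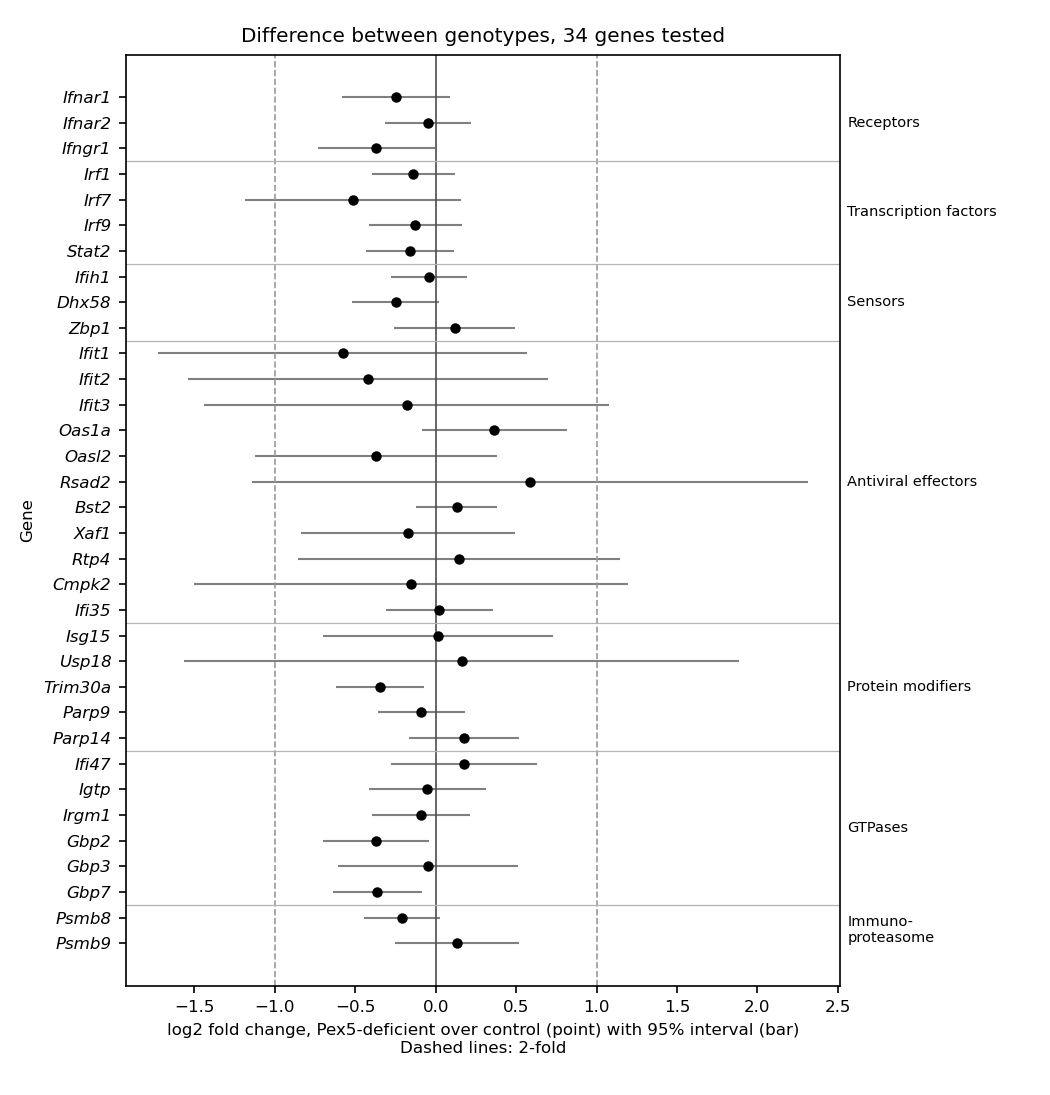
Log2 fold change of Pex5-deficient over control (points) with its 95% interval (bars) for the 34 tested interferon response genes, by role, with dashed lines at a 2-fold change. The points lie between -0.58 and 0.58, and the bars that cross a dashed line belong to 9 genes, most of them antiviral effectors of low abundance.

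Letters of the kind that interferon-activated factors recognise were searched in the RefSeq promoter windows of GRCm38.p6, from 250 bases before to 50 bases after a start site. Windows were matched by symbol for 28 of the 35 members, all but Dhx58, Zbp1, Mx1, Rtp4, Usp18, Parp9 and Parp14. The ISRE core was read on both strands as GAAA, any 2 bases, and GAAA again, and the GAS as TTCNNNGAA, which reads the same on both strands, and matches may overlap one another. The ISRE core occurred in a window of 14 of the 28 genes (50%), against 3.92% of the 8516 tested genes with a window, and the GAS in 10 of 28 (35.7%), against 8.31%. The shares in 96 other genes of the interferon system, listed further on, were 37.5% and 20.8%. By window of the same length the shares were 3.44% and 8.3% of all 32851 windows. A match is a run of letters and was not shown to be a bound site. The following ISRE cores include those of Rsad2, Ifit1 and Ifit3, which were among the members that varied most between libraries of one genotype. Isg15, Bst2 and Gbp7 are shown beside them, as they carry the same core and varied less in the Pex5-deficient group. Bst2 and Gbp7 were also more abundant, with control means of 28.3 and 29.6 CPM against 1.54 to 1.86 CPM for Rsad2, Ifit1 and Ifit3. Ifit2 and Cmpk2 held no core in their windows, yet their highest Pex5-deficient library exceeded the lowest by ratios of 4.26 and 4.7. Whether the core goes with the spread was not tested. Capitals mark the matched letters, on the strand of the gene.
Rsad2, chr12:26456553-26456582, minus strand: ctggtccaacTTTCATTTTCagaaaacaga
Ifit1, chr19:34640794-34640823, plus strand: ccagtctcagTTTCAGTTTCtcactgctga
Ifit3, chr19:34583397-34583426, plus strand: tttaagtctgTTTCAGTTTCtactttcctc
Isg15, chr4:156200871-156200900, minus strand: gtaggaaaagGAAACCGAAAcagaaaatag
Bst2, chr8:71537577-71537606, minus strand: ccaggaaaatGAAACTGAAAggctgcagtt
Gbp7, chr3:142530273-142530302, plus strand: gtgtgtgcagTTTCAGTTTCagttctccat
The GAS matches of Irf1 and Gbp7 are shown as those of a transcription factor and a GTPase that interferon gamma induces.
Irf1, chr11:53769914-53769942, plus strand: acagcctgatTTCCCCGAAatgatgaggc
Gbp7, chr3:142530220-142530248, plus strand: tccgttttctTTCCAGGAAaagcagaagc

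The ISRE core occurred in 5 of the 6 GTPase genes, in 5 of the 10 antiviral effectors with a window, and in both protein modifiers with one. None of the 3 receptor genes and neither immunoproteasome gene held it, and of the 3 receptor genes Ifnar1 and Ifnar2 held a GAS. The core lay from 222 bases before the start site in Stat2 to base 33 after it in Ifih1. Overlapping cores were found in Isg15, where 3 of them began at 78, 72 and 66 bases before the start site. No match in a window says only that these letters are not there.

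**Figure D2:**
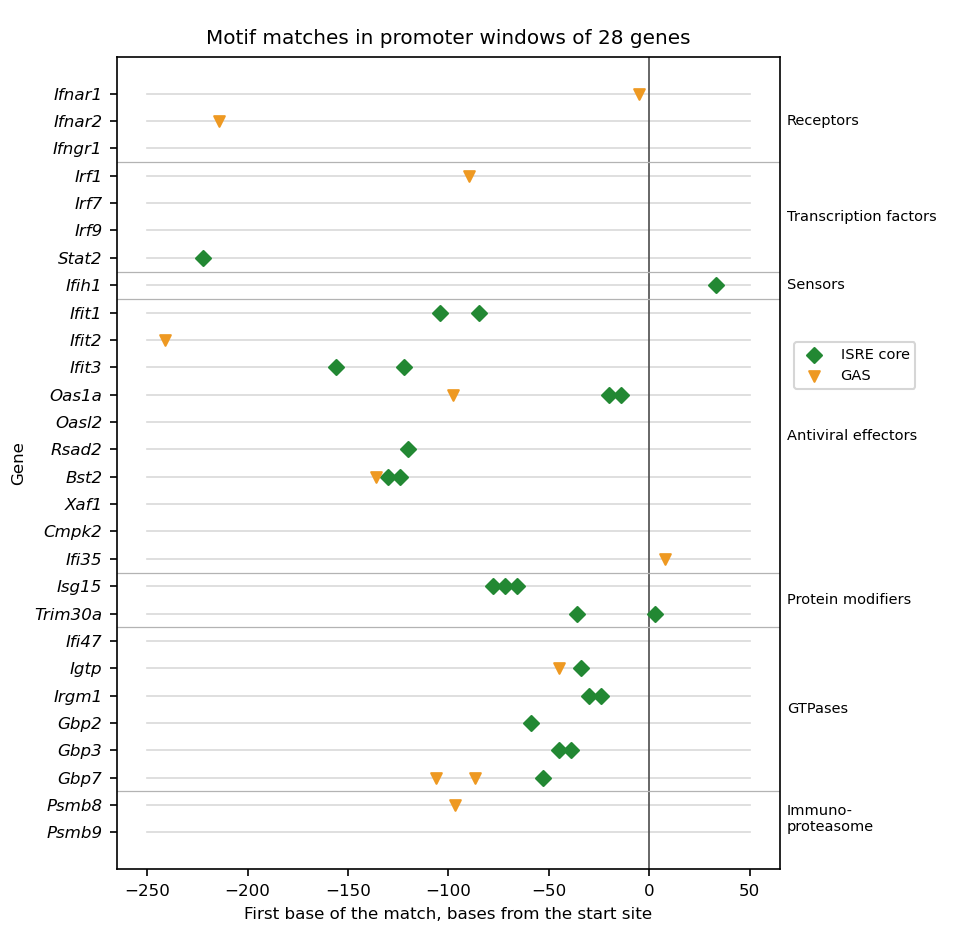
First base of each match to the ISRE core (diamonds) and the GAS (triangles), in bases from the start site, in the promoter windows of 28 interferon response genes, by role. Genes with more than 1 window show the matches of all of them; the GTPases carry the ISRE core in 5 of 6 genes, and no receptor gene does.

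All 3 receptor genes were expressed in every library. Ifngr1, the ligand-binding chain of the interferon gamma receptor, lies on chromosome 10 from 19591949 to 19610229 (GENCODE release 21, GRCm38) and measured 218, 183 and 272 CPM in Pex5-deficient against 302, 303 and 264 CPM in control libraries. Pex5-deficient replicates 1 and 2 were the lowest of the 6, and replicate 3 lay within the control range. The difference on the log2 scale was -0.37 ± 0.16 (SE, 3 libraries per group), with an edgeR adjusted p = 0.261. Per length of its exons it was the most abundant of all 35 members, at 102 CPM per kb in control. Ifnar1, a chain of the type I receptor, measured 22.5, 27.9 and 26.8 CPM against 30.2, 25.5 and 36.2 CPM, with overlap (-0.25 ± 0.15, edgeR adjusted p = 0.405). Ifnar2, the other chain, lies 79648 bases before Ifnar1 on chromosome 16 and measured 76.4, 59.6 and 75.2 CPM against 73.8, 71.6 and 72.6 CPM.

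The transcription factors of the pathway were present in all 6 libraries. Irf7, which amplifies the type I response and is itself induced by it, measured 5.63, 4.29 and 2.77 CPM in Pex5-deficient and 4.38, 7.10 and 6.41 CPM in control libraries. The lowest value belonged to Pex5-deficient replicate 3, while replicate 2 lay just under the control range and replicate 1 within it (log2 fold change -0.51 ± 0.29, edgeR adjusted p = 0.386). Stat2, the subunit particular to the type I complex, measured 23.8, 28.4 and 23.4 CPM against 25.8, 27.8 and 30.7 CPM (-0.16 ± 0.12, edgeR adjusted p = 0.527). Irf1, a factor induced by interferon gamma, was the most abundant of these 4 per length and measured 39.5, 50.04 and 44.4 CPM against 50.5, 51.1 and 46.2 CPM (-0.14 ± 0.11, edgeR adjusted p = 0.556). Irf9, the DNA-binding subunit of the type I complex, stayed between 17.2 and 22.9 CPM over the 6 libraries.

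Among the sensors, Dhx58, which encodes the RNA-binding regulator LGP2, read 23.9, 22.9 and 19.6 CPM in Pex5-deficient and 23.9, 27.0 and 27.95 CPM in control libraries. Every Pex5-deficient value was below every control value, but replicate 1 of each group lay almost together (23.934 and 23.937 CPM), and the difference did not pass (log2 fold change -0.25 ± 0.12, edgeR adjusted p = 0.304). Zbp1, a sensor of Z-form nucleic acid that can start necroptosis, measured 10.6, 10.3 and 8.70 CPM against 8.21, 10.4 and 8.64 CPM (0.12 ± 0.16, edgeR adjusted p = 0.75). Ifih1, which encodes the RNA sensor MDA5, was among the most even members, between 18.6 and 20.6 CPM in all 6 libraries.

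The antiviral effectors fell into an abundant and a scarce set. Per length, Oas1a, Bst2 and Ifi35 had control levels from 11.6 to 31.4 CPM per kb of exon, whereas the other 9 genes lay between 0.0696 and 1.06 CPM per kb. Oas1a, a synthetase whose product activates RNase L, had the smallest p of this role and measured 37.5, 22.1 and 25.5 CPM in Pex5-deficient against 19.3, 21.3 and 25.05 CPM in control libraries. Pex5-deficient replicate 1 stood apart above the other 5 libraries, and the difference did not pass (log2 fold change 0.36 ± 0.20, edgeR adjusted p = 0.362). Oas1a shares 40.9% of its 100-base words with Oas1g, so its count is uncertain. Bst2, or tetherin, which holds budding viruses at the cell surface, was the most abundant effector per length, at 31.4 CPM per kb in control. It measured 32.5, 33.5 and 27.1 CPM against 27.6, 29.1 and 28.3 CPM (0.13 ± 0.11, edgeR adjusted p = 0.575). Bst2 also marks plasmacytoid dendritic cells. Of the 7 markers listed for these cells, Siglech, Klk1 and Ly6d had no count in any library. Tcf4 read 5.79 to 10.4 CPM over the 6 libraries, while Ccr9 had 3 to 6 and Cox6a2 1 to 11 reads per library. The part of such cells in the level of Bst2 was not tested. Ifi35, a partner of other interferon-induced proteins, measured 44.6, 34.1 and 30.8 CPM against 32.7, 36.4 and 38.3 CPM.

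Several scarce effectors differed more between libraries of one genotype than between genotypes. Rsad2 encodes viperin, an enzyme that makes a chain-terminating nucleotide, and measured 5.71, 1.30 and 0.452 CPM in Pex5-deficient libraries, from 73, 31 and 8 reads. The control libraries read 1.17, 2.18 and 1.28 CPM. Pex5-deficient replicate 1 was thus the highest of the 6 and replicate 3 of the same genotype the lowest, a ratio of 12.6 with a 95% counting interval from 6.08 to 30.4. Cmpk2, a nucleotide kinase gene 12751 bases from Rsad2 on chromosome 12 and on the other strand, measured 2.58, 0.546 and 0.622 CPM against 1.02, 1.66 and 1.15 CPM. In both neighbours Pex5-deficient replicate 1 lay above and replicate 3 below all control libraries. These scarce genes are described by their spread because it was seen in the data.

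The Ifit genes encode RNA-binding proteins that block translation of foreign transcripts, and the 3 members lie together on chromosome 19 between 34550694 and 34650009. Ifit1 measured 1.64, 1.26 and 0.339 CPM in Pex5-deficient and 1.10, 1.55 and 2.09 CPM in control libraries. Ifit2 measured 3.13, 1.30 and 0.735 CPM against 1.49, 2.41 and 2.70 CPM. Ifit3 measured 3.44, 1.05 and 0.735 CPM against 1.25, 1.89 and 2.43 CPM, and it shares 31.7% of its words with Ifit3b, so its count is uncertain. All 3 genes read highest in replicate 1 and lowest in replicate 3 of the Pex5-deficient group, by ratios of 4.84, 4.26 and 4.68. In the control group the same 3 genes read highest in replicate 3 and lowest in replicate 1, by ratios of 1.91, 1.82 and 1.94.

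The remaining scarce effectors followed in smaller steps. Oasl2, an OAS-like protein, measured 1.72, 1.35 and 0.848 CPM in Pex5-deficient against 1.49, 1.55 and 1.96 CPM in control libraries. Xaf1, a proapoptotic protein, measured 3.05, 2.77 and 1.70 CPM against 2.74, 2.35 and 3.38 CPM. Rtp4, a receptor transporter protein, measured 3.21, 2.10 and 1.24 CPM against 1.02, 2.81 and 1.89 CPM and shares 11.2% of its words with a predicted gene. In each of them Pex5-deficient replicate 3 was the lowest of its group. Mx1, a GTPase against influenza virus, was the member not tested, with 3, 7 and 3 reads in Pex5-deficient and 2, 4 and 6 reads in control libraries.

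**Figure D3:**
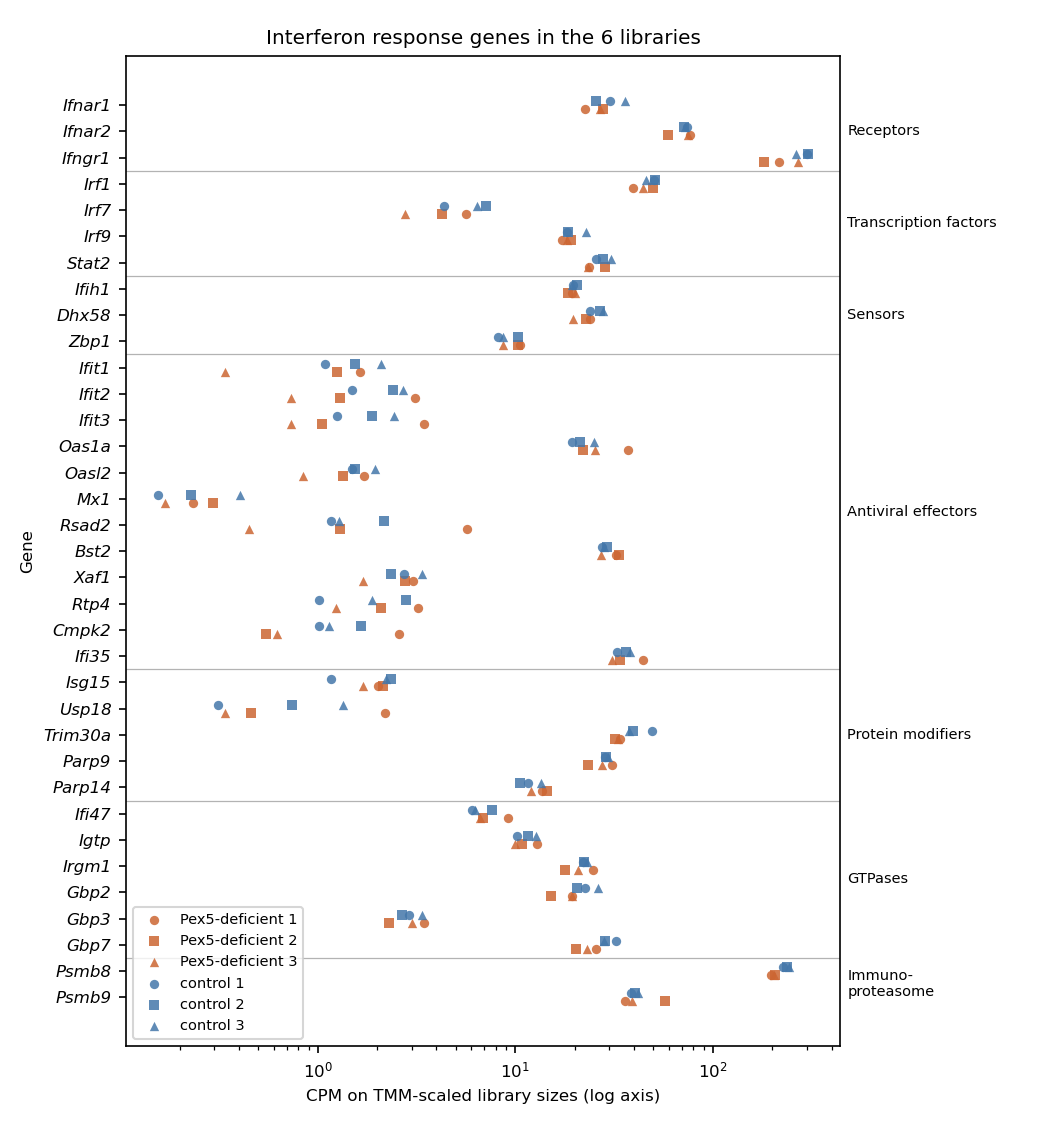
CPM on TMM-scaled library sizes (log axis) of the 35 interferon response genes, by role; colours mark the genotype and symbols the replicate number. The points of the 2 genotypes overlap for most genes, and the scarce antiviral effectors and Usp18 spread most widely, with Rsad2 from 0.452 to 5.71 CPM within the Pex5-deficient group.

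The protein modifiers ranged from 0.288 CPM per kb of exon for Usp18 to 10.2 CPM per kb for Trim30a in control libraries. Trim30a, a tripartite motif protein that dampens signalling, measured 34.1, 32.1 and 33.0 CPM in Pex5-deficient and 49.3, 39.4 and 37.7 CPM in control libraries. The groups did not overlap, and control replicate 1 stood above the other libraries, but the difference did not pass (log2 fold change -0.35 ± 0.12, edgeR adjusted p = 0.167). Parp14, an ADP-ribosyltransferase, measured 13.7, 14.5 and 12.04 CPM against 11.6, 10.6 and 13.5 CPM (0.17 ± 0.15, edgeR adjusted p = 0.576). Parp9, its neighbour on chromosome 16 and a macrodomain protein, measured 30.9, 23.5 and 27.5 CPM against 28.4, 29.0 and 29.5 CPM. For both of these enzymes the groups overlapped. Isg15, the ubiquitin-like modifier, measured 2.03, 2.14 and 1.70 CPM against 1.17, 2.35 and 2.23 CPM. Usp18, the protease that removes ISG15 and restrains the type I receptor, measured 2.19, 0.462 and 0.339 CPM, from 28, 11 and 6 reads, against 0.313, 0.744 and 1.35 CPM, from 4, 13 and 20 reads. Usp18 thus varied widely in both groups, by ratios of 6.46 in Pex5-deficient and 4.32 in control libraries, while Isg15 varied less among the Pex5-deficient libraries (1.26) than among controls (2.001).

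Of the GTPases, Gbp7 had the smallest p of all members. It measured 25.8, 20.4 and 23.0 CPM in Pex5-deficient and 32.4, 28.4 and 28.2 CPM in control libraries, so the groups did not overlap. Its log2 fold change was -0.36 ± 0.12 (edgeR adjusted p = 0.152, 95% interval -0.64 to -0.09), and 10.2% of its words occur in other genes. Gbp2, a guanylate-binding protein that coats vacuoles of microbes, did not overlap either and measured 19.3, 15.2 and 19.4 CPM against 22.7, 20.6 and 26.3 CPM (-0.37 ± 0.14, edgeR adjusted p = 0.215). Gbp3, which lies between Gbp7 and Gbp2 on chromosome 3, measured 3.44, 2.31 and 2.99 CPM against 2.89, 2.69 and 3.38 CPM, with overlap. For the immunity-related GTPases the groups overlapped as well. Ifi47 measured 9.23, 6.89 and 6.67 CPM against 6.02, 7.67 and 6.28 CPM. Igtp measured 12.9, 10.8 and 9.95 CPM against 10.2, 11.7 and 12.8 CPM. Irgm1 measured 24.8, 17.9 and 20.9 CPM against 21.98, 22.4 and 23.2 CPM. In all 3 of them Pex5-deficient replicate 1 was the highest of the 6 libraries.

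The immunoproteasome subunits, which shape peptides for MHC class I, had control levels of 69.6 CPM per kb of exon for Psmb8 and 11.05 CPM per kb for Psmb9. Psmb8 lies on chromosome 17 from 34197721 to 34201454 and measured 197, 208 and 206 CPM in Pex5-deficient and 226, 237 and 243 CPM in control libraries. The groups did not overlap and each was narrow, but the difference did not pass (log2 fold change -0.21 ± 0.10, edgeR adjusted p = 0.323, 95% interval -0.45 to 0.03). Psmb9 lies 9956 bases away and measured 36.0, 57.4 and 39.0 CPM against 38.7, 40.7 and 41.9 CPM (0.13 ± 0.17, edgeR adjusted p = 0.73). Pex5-deficient replicate 2, the library with the outlying scaling factor, carried the high value of Psmb9, and without it the log2 fold change was -0.10 (edgeR adjusted p = 0.659). Exons of 9 members overlap genes on the other strand, over 16.8% of the exon bases in Ifi35, 14.7% in Psmb8, 9.4% in Parp9, 5.79% in Psmb9, 4.44% in Usp18 and 4.31% in Dhx58, and less in Irf1, Irf7 and Gbp2. Since the strand setting of the counting is unknown, their counts may hold reads of those genes.

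The order of the libraries within each genotype recurred across many members, most of all among the scarce ones. Pex5-deficient replicate 1 held the highest value of its group for 22 of the 34 members (64.7%), against 30% of all genes tested, and replicate 3 the lowest for 18 (52.9%), against 34%. Of the control libraries, replicate 3 was highest for 20 members (58.8%, against 34.6% of all genes) and replicate 1 lowest for 23 (67.6%, against 32.6%). Of the 11 members that averaged under 5 CPM, 10 were highest in Pex5-deficient replicate 1 of that group, the exception being Isg15, against 29.1% of all genes of that abundance. Replicate 3 was lowest for 9 of these 11 (81.8%, against 38.7%). Among the 23 members averaging at least 5 CPM it was lowest for 9 (39.1%, against 32.7%), as often as replicate 2. Replicate 1 was highest for 12 of the 23 (52.2%, against 30.2%). In control, replicate 3 was highest for 13 of them (56.5%, against 35.5%) and replicate 1 lowest for 14 (60.9%, against 32.8%). Members share their libraries, so these counts are descriptions and not independent observations.

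The ratio of the highest to the lowest library exceeded 3 in the Pex5-deficient group for 6 members, Ifit1, Ifit2, Ifit3, Rsad2, Cmpk2 and Usp18, which is 17.6% of the 34 against 2.84% of all genes tested. All 6 averaged under 5 CPM, where 9.38% of all genes had such a ratio and the median ratio was 4.26 over the 11 members against 1.62 over all genes. By role the median SD of log2 CPM among Pex5-deficient libraries was 0.64 for the antiviral effectors, against 0.34 among controls. Over all genes it was 0.20 and 0.16, but most of these effectors averaged under 5 CPM and this background is not matched for abundance. In the control group only Usp18 had a ratio of highest to lowest library over 3. Among the 23 more abundant members the median ratio was 1.27 in the Pex5-deficient and 1.17 in the control group, against 1.26 and 1.2 for all genes of that abundance. The summed neutrophil markers were also highest in Pex5-deficient replicate 1, at 188 CPM against 125 and 146 CPM in replicates 2 and 3. Of the 4 tested neutrophil markers only Mmp8 had its highest value of that group there, while Cxcr2 and Csf3r were highest in replicate 2 and S100a8 in replicate 3. Of 91 other tested genes of the interferon system, 43 (47.3%) were highest in Pex5-deficient replicate 1 among the libraries of that genotype, while 44 (48.4%) were lowest in replicate 2.

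**Figure D4:**
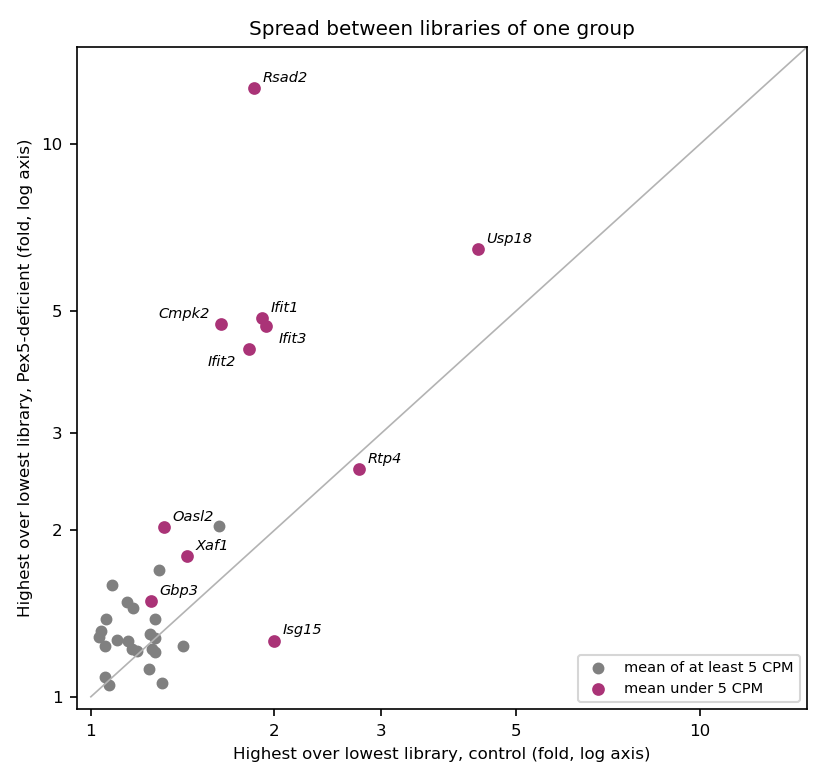
Ratio of the highest to the lowest library within the control group (horizontal, log axis) and within the Pex5-deficient group (vertical, log axis) for the 34 tested genes, with the line of equal ratios; genes averaging under 5 CPM are named. Rsad2 reaches 12.6 in the Pex5-deficient group against 1.85 in control, and the more abundant members lie near 1 on both axes.

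**Figure D5:**
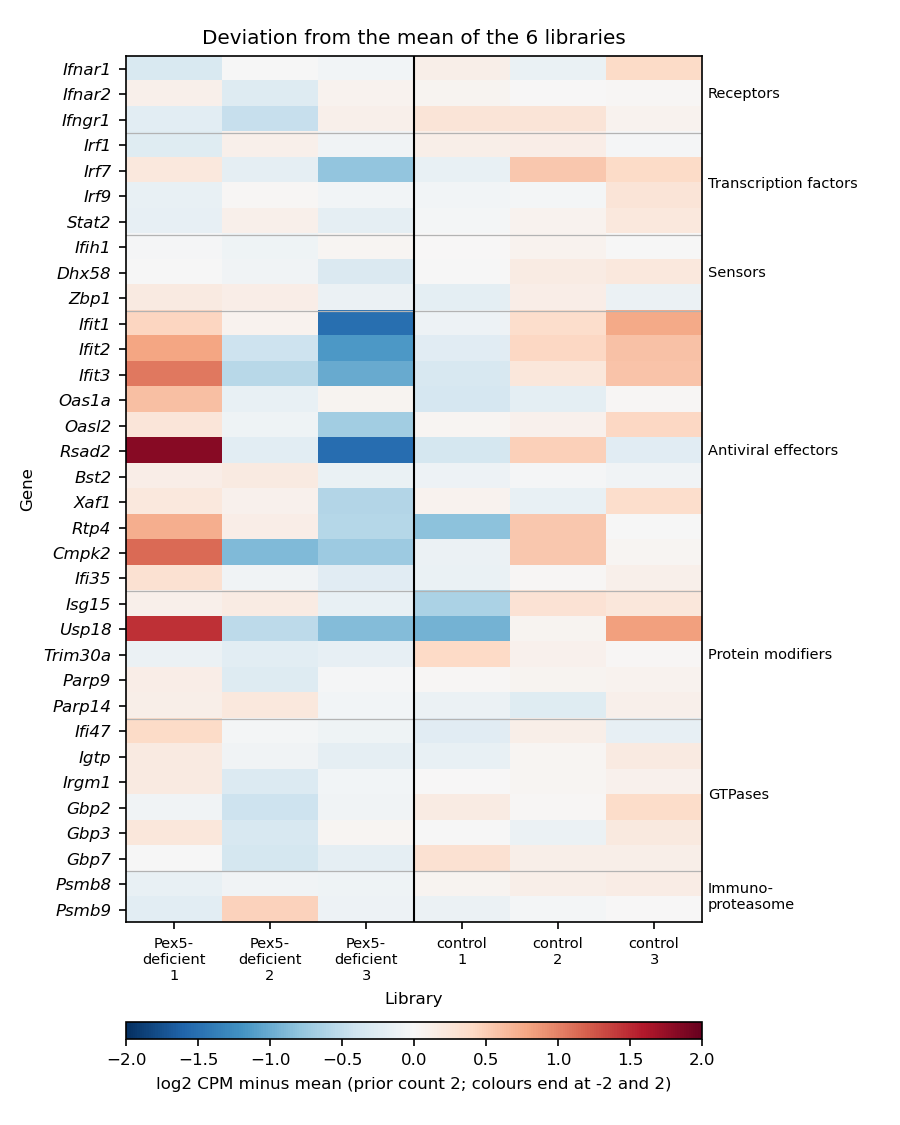
Log2 CPM of each tested gene in each library minus its mean over the 6 libraries, by role. Pex5-deficient replicate 1 is above the mean and replicate 3 below it for most of the scarce antiviral effectors and Usp18, while receptors, sensors and immunoproteasome genes stay close to it.

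Of the 11 tested members under 5 CPM, 8 changed sign when some single library was left out, while Ifit1, Ifit2 and Oasl2 stayed negative throughout. Rsad2 had a log2 fold change of 0.58 ± 0.76 over all libraries and -0.78 without Pex5-deficient replicate 1, and Usp18 had 0.16 ± 0.76 and -0.99. Without that library the median of the members was -0.19 and 28 of 34 had a negative value, and 7 had an unadjusted p under 0.05 with 0 called. Without Pex5-deficient replicate 2 the median was -0.04, and without control replicate 3 it was -0.03. No member was called whichever single library was left out, the lowest adjusted p being 0.13, for Ifngr1 without Pex5-deficient replicate 3.

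A wider list of 126 other genes of the interferon system held 4 genes that passed the test. Of 91 tested, 2 were higher and 2 lower by edgeR's test, against 1.74% and 1.51% of all genes, and DESeq2 called 4 and 4. At an unadjusted p under 0.05 there were 8 higher (8.79%) and 19 lower (20.9%), against 9.7% and 9.17% of all genes. The groups did not overlap for 12 higher (13.2%) and 21 lower genes (23.1%), against 13% and 13.1%. Their median log2 fold change was -0.09. By role, 1 higher and 1 lower gene were among 15 tested sensors, 1 higher among 28 effectors and 1 lower among 4 GTPases. None of 12 signalling genes, 17 modifiers, 9 antigen presentation genes and 6 secreted factors was called, with 4, 3, 2 and 2 of them at an unadjusted p under 0.05, against 18.9% of all genes in either direction. DESeq2 called 1 of those signalling genes, 1 of those modifiers and none of the others. Of the 11 interferon genes examined, Ifnb1 and Ifng among them, 10 had no count in any library, where 3 counts correspond to 0.126 to 0.235 CPM, and Ifnk had 0 to 5 reads.

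Gbp8, another guanylate-binding protein, had the smallest p of this list. It fell from 13.6, 13.0 and 15.1 CPM in control to 6.65, 5.76 and 5.88 CPM in Pex5-deficient libraries (log2 fold change -1.19 ± 0.15, edgeR adjusted p = 0.00703) and kept its call whichever library was left out, the highest adjusted p being 0.0371. Ikbke, a kinase that activates interferon regulatory factors, rose from 2.503, 2.004 and 2.57 CPM to 7.90, 5.13 and 6.73 CPM (1.47 ± 0.24, edgeR adjusted p = 0.0176). Ifitm2, a membrane protein that blocks viral entry, rose from 23.2, 28.9 and 23.8 CPM to 51.6, 38.5 and 51.6 CPM (0.90 ± 0.15, edgeR adjusted p = 0.0176), though 34.9% of its words occur in an overlapping predicted gene. Ifi204, a DNA sensor of the HIN family, fell from 14.4, 13.1 and 11.5 CPM to 8.06, 6.05 and 7.40 CPM (-0.86 ± 0.17, edgeR adjusted p = 0.0343) and shares 16.8% of its words with family members. For these 4 genes the groups did not overlap.

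The last 3 of these calls were lost when any of several libraries was left out, while the log2 fold changes kept their sign, at 1.33 to 1.65 for Ikbke, 0.83 to 1.04 for Ifitm2 and -0.95 to -0.73 for Ifi204. The call of Ikbke ended without Pex5-deficient replicate 1 (adjusted p = 0.0721), and on leaving out any control library (0.0738, 0.0672 and 0.0507 for replicates 1, 2 and 3). That of Ifitm2 ended when Pex5-deficient replicate 1 (0.0739), control replicate 1 (0.0894) or control replicate 3 (0.0671) was left out. Only the fit lacking Pex5-deficient replicate 2 kept that of Ifi204 (0.0498). It had an adjusted p of 0.0802 and 0.0697 when Pex5-deficient replicates 1 and 3 were dropped, 0.139, 0.111 and 0.0721 when control replicates 1, 2 and 3 were, and 0.274 with scaling by library size alone. All of these come from edgeR's test.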

How the data were processed

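Total RNA of sorted macrophages was made into stranded SMART-Seq libraries and read as single-end 100 bp reads, per the labels' protocols. The values are the raw gene counts deposited by the authors, whose processing notes name STAR, featureCounts, R 4.3.2, DESeq2 1.40.1 and the builds GRCm38.p5 and mm10 without order; the sources used here name no aligner version, annotation or strand setting. No molecular identifiers are named, and the counting interval of a ratio between libraries covers counting error only. The intervals of the log2 fold changes come from edgeR's fit and include the spread between libraries. Genes were filtered with filterByExpr (minimum count 10, total 15), scaled by TMM and tested with edgeR 4.0.16 in R 4.3.3 (glmQLFit, glmQLFTest), two-sided, on all genes, with standard errors from the F statistics. DESeq2 1.42.0 was the alternative tool. Log2 CPM used a prior count of 2. The edgeR and DESeq2 fits were also run on simulated counts with known changes, and the outcome of that run is not given here. Groups and replicate numbers come from the titles. Nothing says that libraries came from separate animals, so a p-value here covers the spread between these libraries, which may be technical. The members and lists were chosen with earlier results of these data known. In each role, the 2 members with the smallest p and the most abundant per length are given with tests, and of the wider list the called genes. Positions, exon lengths and shared 100-base words come from GENCODE mouse release 21 (GRCm38); members sharing at least 10% of their words are named as uncertain.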

Additional observations from a re-analysis of the deposited data

How the results depend on the processing

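No member was called under any of the settings run: DESeq2's size factors, library size alone, DESeq2 itself, no filter on low counts, a filter at 5 CPM on average, the replicate block, and each library left out. Over all genes the 192 higher and 166 lower calls became 289 and 132 with library size alone, 376 and 363 with DESeq2, and 122 higher over genes averaging at least 5 CPM. With the replicate block they became 47 and 36, and with each library left out 38 to 305 and 38 to 218. Of the wider list, 2 higher and 2 lower became 4 and 4 with DESeq2, 1 higher among genes averaging at least 5 CPM, 0 and 0 with the replicate block, and 0 to 4 and 1 to 3 with each library left out. Gbp8 had an adjusted p of 0.0514 with the block. Same-numbered libraries had correlations of deviations of -0.21, -0.06 and -0.41. Deviations from a group mean constrain one another, so these values cannot decide whether same-numbered libraries belong together. The titles give only the number, and the block is no paired analysis.

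Of 193 values of members under the other settings, 182 kept their sign. With library size alone 10 turned positive: Ifnar2 (0.10), Irf1 (0.054), Irf9 (0.0442), Stat2 (0.0282), Ifih1 (0.12), Xaf1 (0.0129), Parp9 (0.0604), Igtp (0.11), Irgm1 (0.0545) and Gbp3 (0.0914). With the replicate block Usp18 turned to -0.0226. Of 204 values with a library left out, 177 kept their sign. The 27 others belonged to Ifnar2 (-0.11 to 0.0744), Irf9 (-0.18 to 0.00282), Ifih1 (-0.0746 to 9.5e-05), Ifit3 (-1.04 to 0.18), Rsad2 (-0.78 to 1.09), Xaf1 (-0.32 to 0.0432), Rtp4 (-0.20 to 0.55), Cmpk2 (-1.14 to 0.25), Ifi35 (-0.14 to 0.13), Isg15 (-0.22 to 0.19), Usp18 (-0.99 to 0.75), Parp9 (-0.18 to 0.0233), Igtp (-0.16 to 0.0442), Irgm1 (-0.22 to 0.0299), Gbp3 (-0.18 to 0.12) and Psmb9 (-0.10 to 0.26). Apart from the smaller number of libraries or genes, the cause of these shifts was not tested. The scarce members rest on 2 to 73 reads per library, which limits what can be resolved for them.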
